A study of Mus musculus with 30 samples.

Results

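Of 5125 probe sets with signal in every vehicle-treated mouse liver, 59 are described here: those whose mean intensity was at least 2 times that of vehicle under each of 3 PPAR-alpha agonists, both after 24 h and after 5 days of dosing. A probe set is a group of short oligonucleotides on the array that report 1 transcript or a few related ones. The table held 12488 probe sets, of which 66 were array controls. Of the other 12422, the rule asked for an intensity above 50 on all 8 vehicle arrays, where 50 was the lowest value in the table and is called the floor. It then asked for a group mean of at least 2 times the vehicle mean of the same time in all 6 agonist groups. The rule was met by 64 probe sets, and 5 of these were among 11 that were left out by name. The 59 were thus selected on their agonist and vehicle intensities at each time, so their rise over vehicle is a description and carries no test.

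The livers came from male C57Bl/6 mice that received 1 mg/kg per day of CP-775146, CP-868388 or CP-865520, or water as vehicle, for 24 h or for 5 days. The agonists are piperidines known here only by these code names. Each of the 8 groups held 4 mice with 1 array each, except CP-775146 for 5 days, which held 2. No genotype, allele or further agent is given for any group, so all groups differed by compound and duration alone as far as the labels say. The mice of a group are taken as separate animals from the study's design text. The samples are whole liver, in which fewer cells of a type and less RNA per cell cannot be told apart, and only 1 dose was given.

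PPAR-alpha is a nuclear receptor that binds fatty acids and drugs such as the fibrates, pairs with the retinoid X receptor on DNA, and raises transcription of its target genes. In liver these targets serve fatty acid uptake, oxidation in peroxisomes and mitochondria, omega-oxidation by cytochromes P450 and ketone body formation, and in rodents prolonged activation enlarges the peroxisome compartment. The deposited table names no gene for a probe set and none was assigned, so members are given by probe set ID, their roles are not stated, and the label liver was not checked against marker genes. Of the 59 IDs, 8 carry a mark that Affymetrix uses for probes that can match related transcripts (4 with F, 3 with S and 1 with I), and which transcript those report is uncertain.

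Array means lay between 314.1 and 318.2, and between 5600 and 6741 probe sets per array were above the floor. How precise any value is depends on how many arrays a group held. RNA integrity was followed on each array by Gapdh, a control with probe sets at both ends of its transcript, as the log2 ratio of the 5′ end over the 3′ end. It was under -0.4 on 3 arrays: replicates 1 and 3 of CP-868388 at 24 h, with -0.55 on both, and replicate 4 of CP-865520 at 24 h, with -0.45. On the other 9 agonist arrays of 24 h it lay between -0.19 and 0.11. At 5 days CP-865520 replicate 1 was lowest, at -0.30 beside -0.09 to 0.31 on the other arrays, and its actin ratio, made in the same way, was the lowest of all 30 arrays, at -1.62. Vehicle replicate 4 at 24 h had the lowest of the 4 vehicle values for 34 of the 59 members. Counts that rest on these arrays are given with and without them, but values of single members only in part.

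The 59 are a small share of the liver transcripts measured. Among the 5125 with signal in all vehicle livers, 4717 (92.0%) reached 2-fold in none of the 6 comparisons with vehicle, 16 reached it in 5, and 64 (1.25%) in all 6. The median ratio of the 59 members at 24 h was 2.80 for CP-775146, 2.95 for CP-868388 and 2.52 for CP-865520. The median over all 5125 was 0.931, 0.855 and 0.998 in the same order. At 5 days the members' median ratio was 4.09, 3.56 and 3.92, beside 0.802, 0.873 and 0.849 for all 5125. At least 4-fold was reached by 13, 11 and 13 members at 24 h and by 34, 22 and 26 at 5 days, in the same order of compounds. In 58 of the 59 members, every agonist array was above every vehicle array of its time in all 6 comparisons, where 4.18% of all 7963 probe sets tested were separated in that way. The rule used these values, so nothing is read from that count. The exception was 93212_AT, whose CP-865520 replicate 4 at 24 h, a low Gapdh ratio array, read 164 among vehicle values of 156 to 257. Of 1298 agonist values, 72 were under 2 times the vehicle mean, and 29 members had none such.

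**Figure D1:**
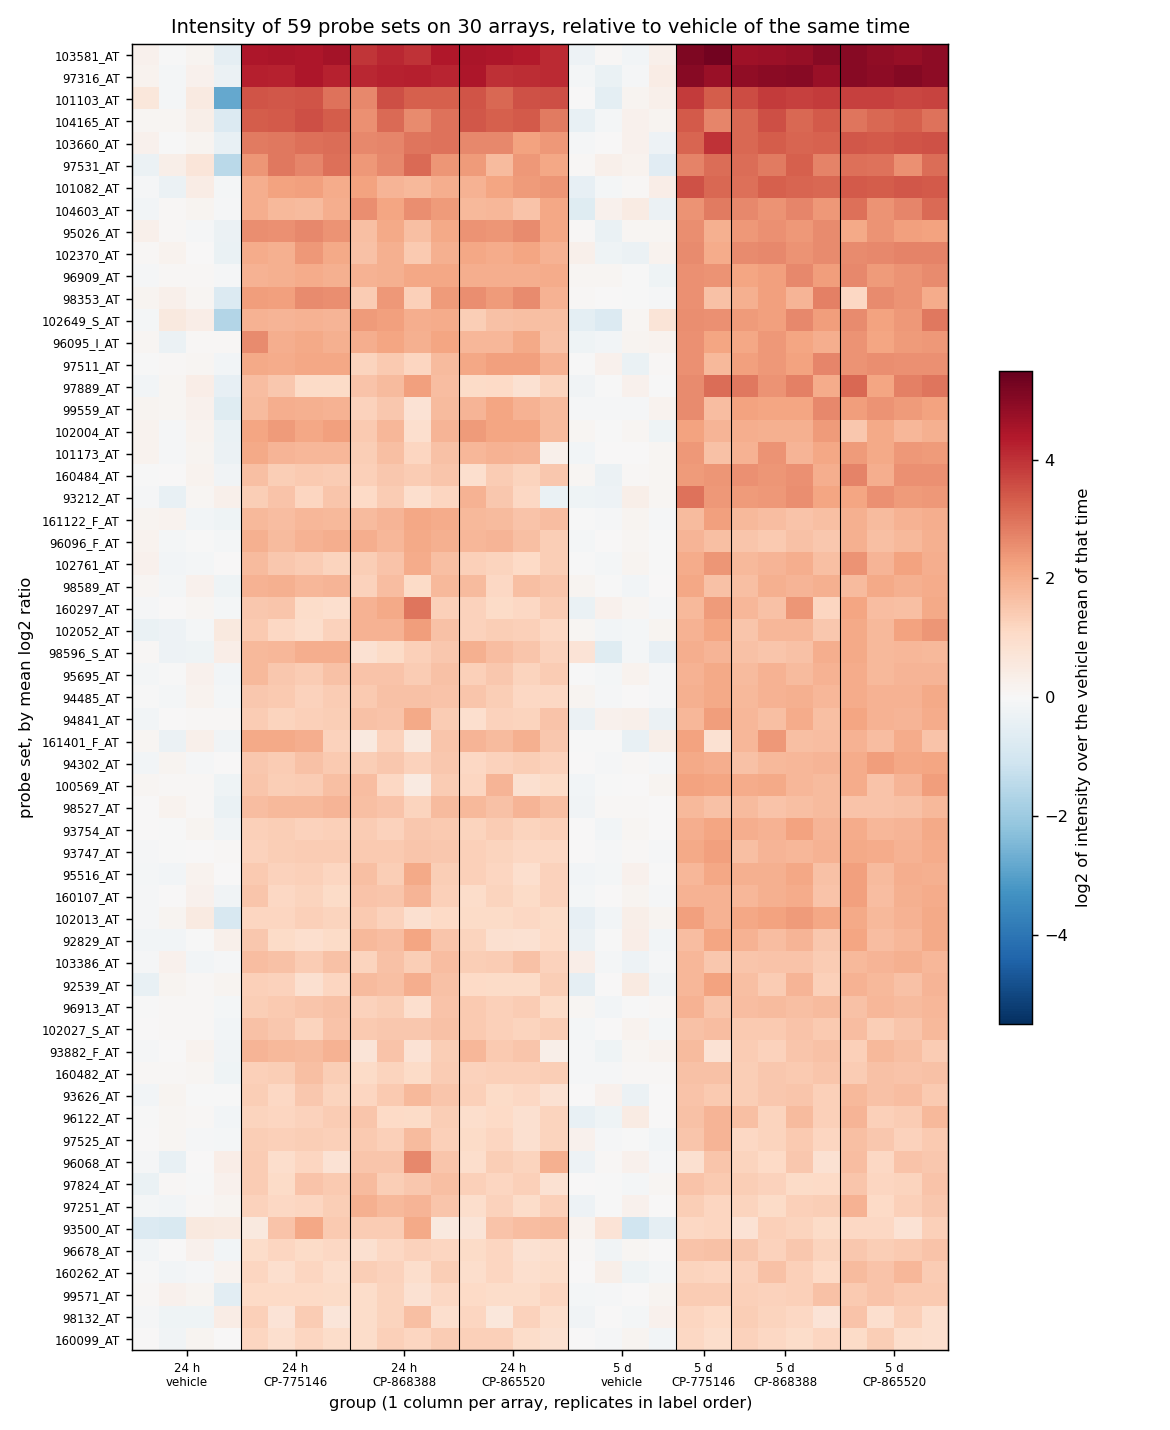
Intensity of the 59 members on each of the 30 arrays, as log2 of the ratio to the vehicle mean of the same time (colour), with members in rows by mean log2 ratio and arrays in columns by group. Agonist columns are red, deepest in the first 2 rows, except for 93212_AT on CP-865520 replicate 4 at 24 h, and the blue cell in the third row is vehicle replicate 4 at 24 h for 101103_AT, which read 115.

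The 2 members with the largest rise were 103581_AT and 97316_AT, which were at least 17.5 times their vehicle mean in all 6 comparisons. Under vehicle, 103581_AT read 244, 207, 231 and 147 at 24 h and 168, 214, 187 and 251 at 5 days. At 24 h, 103581_AT read 4584, 4611, 4519 and 5011 with CP-775146, 3153, 3663, 3211 and 4449 with CP-868388 and 4705, 4572, 4318 and 3602 with CP-865520. At 5 days, 103581_AT read 7224 and 8230 with CP-775146, 5230, 5285, 5750 and 6557 with CP-868388 and 6575, 6109, 5621 and 6181 with CP-865520. Its group means were 22.6, 17.5 and 20.7 times vehicle at 24 h (in the order CP-775146, CP-868388, CP-865520), and 37.7, 27.8 and 29.9 at 5 days, and the groups did not overlap with vehicle. Under vehicle, 97316_AT read 267, 216, 274 and 187 at 24 h and 158, 130, 160 and 226 at 5 days. At 24 h, 97316_AT read 4551, 4474, 5107 and 4423 with CP-775146, 4238, 4474, 4536 and 4280 with CP-868388 and 5216, 3856, 3938 and 4036 with CP-865520. At 5 days, 97316_AT read 5426 and 4500 with CP-775146, 4944, 5187, 5466 and 4478 with CP-868388 and 5349, 5074, 5527 and 5067 with CP-865520. Agonist and vehicle arrays of 97316_AT were again far apart, and its means were 19.7, 18.6 and 18.1 times vehicle at 24 h (in the order CP-775146, CP-868388, CP-865520), and 29.5, 29.8 and 31.2 at 5 days.

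Next came 101103_AT, 104165_AT and 103660_AT, with ratios between 5.63 and 13.6. Under vehicle, 101103_AT read 1242, 755, 1160 and 115 at 24 h and 608, 407, 657 and 725 at 5 days. At 24 h, 101103_AT read 9068, 8677, 9109 and 6567 with CP-775146, 5087, 9611, 7952 and 8053 with CP-868388 and 9122, 7357, 9314 and 9637 with CP-865520. At 5 days, 101103_AT read 8672 and 6107 with CP-775146, 7295, 8625, 8134 and 8587 with CP-868388 and 8067, 8145, 7592 and 7926 with CP-865520. Agonist arrays of 101103_AT sat at one level at both times, while vehicle replicate 4 at 24 h stood far below the other 3. Its ratios were 10.2, 9.38 and 10.8 times vehicle at 24 h (in the order CP-775146, CP-868388, CP-865520), and 12.3, 13.6 and 13.2 at 5 days, and without that vehicle array those of 24 h were 7.94, 7.29 and 8.42. Under vehicle, 104165_AT read 385, 382, 456 and 215 at 24 h and 224, 276, 351 and 325 at 5 days. At 24 h, 104165_AT read 3597, 3693, 4202 and 3609 with CP-775146, 2076, 3115, 2211 and 2885 with CP-868388 and 3802, 3474, 3683 and 2632 with CP-865520. At 5 days, 104165_AT read 3059 and 1883 with CP-775146, 2633, 3456, 2648 and 3005 with CP-868388 and 2237, 2650, 2866 and 2353 with CP-865520. The ratios of 104165_AT were 10.5, 7.15 and 9.45 times vehicle at 24 h (in the order CP-775146, CP-868388, CP-865520), and 8.40, 9.98 and 8.59 at 5 days, and CP-868388 replicates 1 and 3, of low Gapdh ratio, were its lowest agonist arrays at 24 h. Under vehicle, 103660_AT read 978, 813, 917 and 638 at 24 h and 590, 625, 723 and 511 at 5 days. At 24 h, 103660_AT read 6100, 6256, 6809 and 6995 with CP-775146, 5195, 5318, 6424 and 6683 with CP-868388 and 5260, 5263, 3872 and 4427 with CP-865520. At 5 days, 103660_AT read 5699 and 9646 with CP-775146, 5494, 6095, 5558 and 5868 with CP-868388 and 6570, 6336, 6645 and 6963 with CP-865520. The 2 CP-775146 mice of 5 days differed widely in 103660_AT, and its ratios were 7.82, 7.06 and 5.63 times vehicle at 24 h (in the order CP-775146, CP-868388, CP-865520), and 12.5, 9.40 and 10.8 at 5 days.

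The other 5 of the 10 leading members were 97531_AT, 101082_AT, 104603_AT, 95026_AT and 102370_AT. Under vehicle, 97531_AT read 333, 529, 658 and 148 at 24 h and 409, 474, 447 and 254 at 5 days. At 24 h, 97531_AT read 2237, 3134, 2682 and 3405 with CP-775146, 2152, 2633, 3643 and 2272 with CP-868388 and 2098, 1401, 2152 and 1801 with CP-865520. At 5 days, 97531_AT read 2655 and 3297 with CP-775146, 3352, 2877, 3851 and 2660 with CP-868388 and 3195, 3150, 2253 and 3311 with CP-865520. Its ratios were 6.87, 6.41 and 4.47 times vehicle at 24 h (in the order CP-775146, CP-868388, CP-865520), and 7.52, 8.04 and 7.52 at 5 days, and without vehicle replicate 4, which read 148, the 24 h ratios were 5.65, 5.28 and 3.68. Under vehicle, 95026_AT read 1040, 895, 819 and 699 at 24 h and 962, 718, 1003 and 995 at 5 days. At 24 h, 95026_AT read 5052, 4871, 5413 and 4836 with CP-775146, 2743, 3653, 2719 and 3667 with CP-868388 and 4779, 4681, 5170 and 3798 with CP-865520. At 5 days, 95026_AT read 5348 and 3543 with CP-775146, 4751, 5201, 4803 and 5534 with CP-868388 and 3955, 5145, 4364 and 4246 with CP-865520. Under CP-868388 at 24 h, 95026_AT was lower than under the other compounds, and by 5 days the compounds overlapped, with ratios of 5.84, 3.70 and 5.34 times vehicle at 24 h (in the order CP-775146, CP-868388, CP-865520), and 4.83, 5.52 and 4.82 at 5 days. Under vehicle, 102370_AT read 1491, 1640, 1446 and 1119 at 24 h and 1322, 919, 859 and 1253 at 5 days. At 24 h, 102370_AT read 5805, 5559, 7360 and 6104 with CP-775146, 4392, 5457, 3821 and 5453 with CP-868388 and 6176, 5812, 6466 and 5282 with CP-865520. At 5 days, 102370_AT read 6617 and 4416 with CP-775146, 6588, 6880, 6013 and 6691 with CP-868388 and 6631, 6817, 7186 and 7117 with CP-865520. Its agonist arrays were all well above vehicle, at 4.36, 3.36 and 4.17 times vehicle at 24 h (in the order CP-775146, CP-868388, CP-865520), and 5.07, 6.01 and 6.38 at 5 days. 101082_AT and 104603_AT are described with the members that differed between times. At least 4-fold in all 6 comparisons was reached by 6 members: 103581_AT, 97316_AT, 101103_AT, 104165_AT, 103660_AT and 97531_AT.

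**Figure D2:**
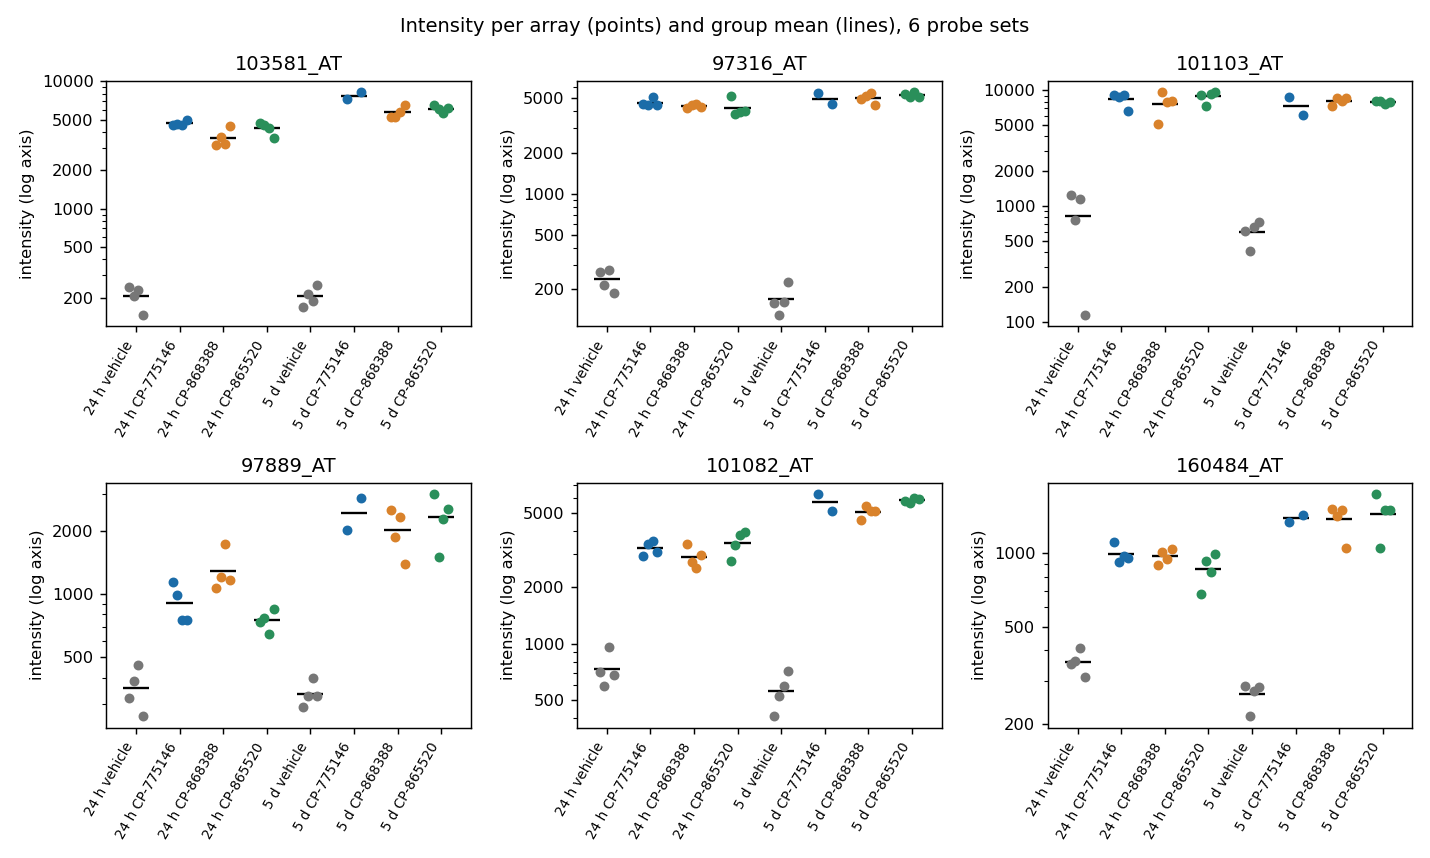
Intensity on every array (points, log axis) and group mean (horizontal lines) for 6 members in the 8 groups. In the upper row 103581_AT, 97316_AT and 101103_AT stand far above vehicle at both times, and in the lower row 97889_AT, 101082_AT and 160484_AT stand higher at 5 days than at 24 h under each agonist.

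Whether the response grew between 24 h and 5 days was tested as the difference between the mean response of the 3 compounds at 5 days and at 24 h, each against its own vehicle, on log2(intensity + 50). Adding 50 understates the change of dim probe sets. The response was larger at 5 days in 21 of the 59 members and smaller in none, by limma with Benjamini-Hochberg adjustment over 7963 probe sets at an adjusted p under 0.05. At an unadjusted p under 0.05 the counts were 31 and 0. Without the 3 arrays of low Gapdh ratio 22 were larger, and without vehicle replicate 4 of 24 h 21. Of all probe sets tested, 4.68% were called higher and 4.01% lower (8.69% in either direction) in the fit with all arrays. The shares in the fits without arrays are not given here. The median difference was 0.38 over the 59 members and -0.03 over all tested. The rule used the same agonist and vehicle values, though not their difference between the times. Of the 5125 with signal in all vehicle livers, 92.0% reached 2-fold in no comparison, so most of the background had little response to change. A larger share among the members is therefore not read as particular to them. In all 21 the mean agonist level itself was higher at 5 days, and in 17 the vehicle level was lower. Agonist levels differed by a median of 0.51 and vehicle levels by -0.14 on the log2 scale. The agonist part was the larger in 15 of the 21, and in 6 the fall in vehicle passed the test by itself.

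The largest difference was in 97889_AT. Under vehicle, 97889_AT read 321, 388, 462 and 262 at 24 h and 291, 328, 397 and 328 at 5 days. At 24 h, 97889_AT read 1146, 991, 751 and 751 with CP-775146, 1068, 1207, 1725 and 1165 with CP-868388 and 735, 772, 649 and 848 with CP-865520. At 5 days, 97889_AT read 2018 and 2850 with CP-775146, 2521, 1863, 2327 and 1384 with CP-868388 and 2997, 1495, 2272 and 2547 with CP-865520. All 10 agonist arrays of 5 days but 2, CP-868388 replicate 4 and CP-865520 replicate 2, were above the highest of 24 h. Its response grew by 1.24 ± 0.24 (SE) on the log2 scale, with limma's adjusted p = 0.00171, and its ratios were 2.54, 3.60 and 2.10 times vehicle at 24 h (in the order CP-775146, CP-868388, CP-865520), and 7.24, 6.02 and 6.93 at 5 days. Under vehicle, 101082_AT read 708, 594, 966 and 679 at 24 h and 410, 526, 597 and 717 at 5 days. At 24 h, 101082_AT read 2948, 3405, 3533 and 3067 with CP-775146, 3401, 2712, 2545 and 2984 with CP-868388 and 2752, 3358, 3776 and 3947 with CP-865520. At 5 days, 101082_AT read 6290 and 5086 with CP-775146, 4550, 5426, 5098 and 5071 with CP-868388 and 5772, 5598, 5964 and 5896 with CP-865520. Every 5-day agonist array of 101082_AT was above every 24 h one, and the response grew by 1.14 ± 0.16 (SE; limma's adjusted p = 5.90e-05) with ratios of 4.40, 3.95 and 4.69 times vehicle at 24 h (in the order CP-775146, CP-868388, CP-865520), and 10.1, 8.95 and 10.3 at 5 days. By compound, the growth in 101082_AT was 1.16 for CP-775146, 1.15 for CP-868388 and 1.12 for CP-865520, and each passed the test.

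Under vehicle, 93212_AT read 201, 156, 223 and 257 at 24 h and 135, 131, 198 and 168 at 5 days. At 24 h, 93212_AT read 535, 620, 477 and 607 with CP-775146, 449, 549, 396 and 480 with CP-868388 and 790, 578, 455 and 164 with CP-865520. At 5 days, 93212_AT read 1264 and 825 with CP-775146, 811, 836, 919 and 715 with CP-868388 and 709, 894, 804 and 818 with CP-865520. The response of 93212_AT grew by 1.11 ± 0.29 (SE; limma's adjusted p = 0.0169), with CP-865520 replicate 4 at 24 h near the vehicle level. Under vehicle, 160484_AT read 350, 362, 407 and 312 at 24 h and 286, 214, 273 and 282 at 5 days. At 24 h, 160484_AT read 1110, 920, 977 and 953 with CP-775146, 893, 1013, 951 and 1045 with CP-868388 and 680, 928, 835 and 998 with CP-865520. At 5 days, 160484_AT read 1349 and 1436 with CP-775146, 1520, 1429, 1508 and 1055 with CP-868388 and 1754, 1052, 1513 and 1502 with CP-865520. In 160484_AT both parts moved: agonist arrays were mostly higher and vehicle arrays all lower at 5 days, and the response grew by 0.93 ± 0.16 (SE; limma's adjusted p = 0.000379). Under vehicle, 102013_AT read 190, 221, 280 and 107 at 24 h and 144, 175, 250 and 219 at 5 days. At 24 h, 102013_AT read 453, 453, 489 and 469 with CP-775146, 538, 482, 368 and 425 with CP-868388 and 414, 420, 433 and 415 with CP-865520. At 5 days, 102013_AT read 946 and 741 with CP-775146, 864, 903, 1000 and 864 with CP-868388 and 846, 684, 749 and 837 with CP-865520. Here the 5-day agonist arrays were all above the 24 h ones while vehicle arrays overlapped, a growth of 0.83 ± 0.18 (SE; limma's adjusted p = 0.00529).

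Under vehicle, 104603_AT read 680, 792, 841 and 740 at 24 h and 468, 865, 1004 and 593 at 5 days. At 24 h, 104603_AT read 3015, 2646, 2524 and 3044 with CP-775146, 4525, 3421, 4480 and 3814 with CP-868388 and 2614, 2712, 2280 and 3315 with CP-865520. At 5 days, 104603_AT read 4081 and 5274 with CP-775146, 4624, 4107, 4700 and 3782 with CP-868388 and 5958, 4010, 4773 and 6340 with CP-865520. The response of 104603_AT grew by 0.68 ± 0.20 (SE; limma's adjusted p = 0.0331), with the CP-868388 arrays already high at 24 h, and the call was lost in 8 of 41 alternative fits. Under vehicle, 93754_AT read 2347, 2291, 2516 and 2020 at 24 h and 2374, 2135, 2559 and 2362 at 5 days. At 24 h, 93754_AT read 5767, 5888, 5487 and 5727 with CP-775146, 5997, 5604, 6374 and 6199 with CP-868388 and 5297, 6114, 5284 and 5730 with CP-865520. At 5 days, 93754_AT read 9460 and 10592 with CP-775146, 9320, 8818, 10884 and 8616 with CP-868388 and 9636, 8300, 8518 and 10143 with CP-865520. In 93754_AT vehicle arrays overlapped between times and all 5-day agonist arrays were above those of 24 h, a growth of 0.67 ± 0.10 (SE; limma's adjusted p = 9.95e-05). Under vehicle, 100569_AT read 172, 163, 163 and 134 at 24 h and 147, 161, 168 and 186 at 5 days. At 24 h, 100569_AT read 459, 406, 415 and 490 with CP-775146, 515, 349, 222 and 417 with CP-868388 and 358, 583, 287 and 329 with CP-865520. At 5 days, 100569_AT read 765 and 750 with CP-775146, 689, 696, 593 and 561 with CP-868388 and 680, 484, 596 and 804 with CP-865520. The growth of 0.66 ± 0.21 (SE; limma's adjusted p = 0.0491) in 100569_AT lost its call in 28 of 41 alternative fits. The other 6 of these 8 kept theirs in all 41.

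The remaining 13 members called higher at 5 days were 93747_AT, 94302_AT, 94485_AT, 97316_AT, 103581_AT, 96909_AT, 160107_AT, 103660_AT, 102761_AT, 95695_AT, 95516_AT, 96678_AT and 102370_AT, with differences of 0.38 to 0.64. Of the 41 alternative fits, 15 lost the call of 102370_AT, 5 that of 95516_AT, 3 that of 95695_AT, 3 that of 96678_AT, 1 that of 103660_AT and 1 that of 102761_AT, and the other 7 of these kept theirs in all. Among the 38 members not called, differences ran from -0.26 to 0.58, and in 36 the 95% interval lay within 2-fold in either direction. In 9 of them the difference was below 0, with no adjusted p under 0.430. Of the leading 10, the difference in 101103_AT was 0.01 with an interval from -0.89 to 0.91, and in 104165_AT it was -0.06 with an interval from -0.49 to 0.37. The value for 101103_AT includes vehicle replicate 4 at 24 h, which read 115 beside 755 to 1242 on the others. Without that array its 24 h ratios, in the usual order of compounds, were 7.94, 7.29 and 8.42. Those at 5 days were 12.3, 13.6 and 13.2. The difference without that array is not given here, so no lack of growth is read from the 0.01.

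By compound, the response was called larger at 5 days in 11 members under CP-775146 (2.17% of all tested were called higher, 2.64% lower and 4.81% in either direction). It was called larger in 9 under CP-868388 (2.51% higher, 1.03% lower and 3.54% in either direction) and in 27 under CP-865520 (7.33%, 9.97% and 17.3%). It was called smaller in none by limma, with 0, 3 and 0 members at an unadjusted p under 0.05. These 3 tests share the vehicle arrays, and the limit of the background given for the mean response holds for them too. 5 members were called under all 3 compounds, 9 under 2 of them, 14 under 1 and 31 under none, where the shares of all probe sets tested were 0.666%, 1.97%, 6.08% and 91.3%. The count for CP-775146 was 17 and that for CP-868388 was 2 without the 3 arrays of low Gapdh ratio, and that for CP-865520 was 23 without its replicate 1 at 5 days. Single arrays also moved the CP-775146 count, to 7 without replicate 2 at 24 h or vehicle replicate 3 at 24 h, to 4 without replicate 2 at 5 days, which leaves 1 mouse in that group, taken to vary like the other groups, and to 17 without vehicle replicate 3 at 5 days. Centring each array on its bright probe sets moved all probe sets by a median of 0.14 for CP-775146, -0.07 for CP-868388 and 0.11 for CP-865520. The calls became 19, 5 and 30, all of a larger response. The shares of all probe sets called after centring or without arrays are not given here, so these counts describe the members alone.

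**Figure D3:**
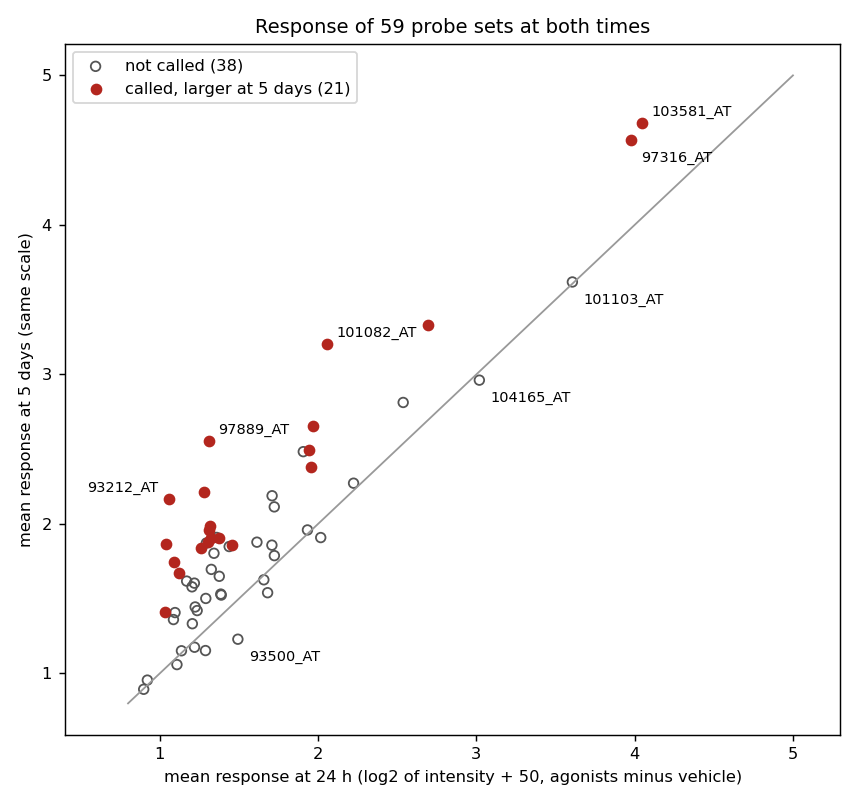
Mean response of the 3 agonists over vehicle at 24 h (horizontal) and 5 days (vertical) for each of the 59 members, both as log2 differences of intensity + 50, with the line of equal response. The 21 members called in the test of the difference lie above the line, and 50 of the 59 are above it in all.

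Vehicle livers alone differed between the times in 9 of the 59 members, all lower at 5 days, by limma's test with adjustment over 7963 probe sets, with 15 lower and 3 higher at an unadjusted p under 0.05. Of all probe sets tested, 11.5% were lower, 11.2% higher and 22.7% called in either direction. The 9 are 15.3% of the members, near the share called lower and under that in either direction. The rule also used these vehicle values, for the floor and as the base of each ratio. Nothing particular to the members is thus read from the count. The 9 were 99559_AT, 97511_AT, 103660_AT, 97316_AT, 160484_AT, 96909_AT, 94302_AT, 160482_AT and 93747_AT. In 97511_AT the vehicle arrays read 309, 320, 330 and 278 at 24 h and 206, 251, 163 and 220 at 5 days, without overlap. The log2 difference was -0.48, with limma's adjusted p = 0.0111. The count was 5 without vehicle replicate 1 of 24 h, 4 without replicate 3 of 24 h, and 3 without replicate 2 of 5 days. It rose to 11, all lower at 5 days, without vehicle replicate 4 of 24 h, and likewise without the arrays of low Gapdh ratio. After quantile normalization 5 members were lower and 2 higher. The shares of all probe sets called in these alternatives are not given here.

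At 24 h, CP-868388 differed from the other compounds in some members, as it did in many other probe sets. The 3 compounds, given at the same dose, were compared in 3 pairs at each time, with p-values adjusted over 7963 probe sets within each pair. CP-775146 and CP-868388 differed in 17 members, 10 higher and 7 lower under CP-775146, where 11.2% and 5.19% of all probe sets tested were called (16.4% in either direction). CP-868388 and CP-865520 differed in 21 members, 16 higher and 5 lower under CP-868388, where 8.13% and 19.8% of all were called (27.9% in either direction). CP-775146 and CP-865520 differed in no member by limma's adjusted p (0.1% of all probe sets were called). At an unadjusted p under 0.05, 10 members were higher and 0 lower under CP-775146. The difference was above 0 in 50 of the 59, and 58 members had a 95% interval inside 2-fold. Centring each array shifted all probe sets by a median of -0.11 between CP-775146 and CP-868388 and of 0.15 between CP-868388 and CP-865520, after which the calls were 6 higher and 8 lower, and 25 higher and 5 lower. By centring, 10 members changed sign in the first of these pairs and 7 in the second, none of them called without centring. Without the 3 arrays of low Gapdh ratio, the first pair had 0 calls by limma, with 10 members at an unadjusted p under 0.05, and the second had 1, with 17. That fit left CP-868388 at 24 h with replicates 2 and 4 alone, and the share of all probe sets called in it is not given here. Calls lost through fewer arrays and through RNA integrity cannot be told apart.

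CP-868388 was above both other compounds in 6 members: 104603_AT, 160297_AT, 102052_AT, 92829_AT, 92539_AT and 97251_AT (10.2% of the members, and 4.27% of all probe sets tested). The values of 104603_AT at 24 h are given above. At 24 h, 160297_AT read 345, 364, 253 and 234 with CP-775146, 464, 531, 968 and 310 with CP-868388 and 300, 255, 275 and 330 with CP-865520. CP-868388 replicate 3 was the highest and replicate 4 fell among the arrays of the other compounds. At 24 h, 92829_AT read 4429, 3258, 2955 and 3281 with CP-775146, 5415, 5092, 6974 and 4494 with CP-868388 and 3683, 2867, 2843 and 3395 with CP-865520. All 4 CP-868388 arrays were above the 8 others in 92829_AT, by 0.65 over CP-775146 and 0.76 over CP-865520 on the log2 scale, with limma's adjusted p of 0.00838 and 0.00161. At 24 h, 102052_AT read 332, 269, 242 and 290 with CP-775146, 465, 460, 597 and 371 with CP-868388 and 295, 314, 302 and 273 with CP-865520. At 24 h, 92539_AT read 4217, 4084, 3143 and 3783 with CP-775146, 5630, 5239, 6644 and 5232 with CP-868388 and 3648, 3492, 3542 and 4362 with CP-865520. At 24 h, 97251_AT read 294, 270, 278 and 316 with CP-775146, 474, 424, 448 and 357 with CP-868388 and 244, 301, 251 and 307 with CP-865520. In these 3, as in 104603_AT, the 4 CP-868388 arrays lay above all 8 arrays of the other compounds.

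CP-868388 was below both other compounds in 5 members: 95026_AT, 97511_AT, 99559_AT, 102004_AT and 161401_F_AT (8.47% of the members, and 8.92% of all probe sets tested, a share near the background). At 24 h, 97511_AT read 1324, 1259, 1367 and 1365 with CP-775146, 717, 830, 692 and 1018 with CP-868388 and 1341, 1486, 1486 and 1158 with CP-865520. All 4 CP-868388 arrays of 97511_AT were below the 8 others, by 0.69 against CP-775146 and 0.72 against CP-865520, with limma's adjusted p of 0.00168 and 0.000545. At 24 h, 99559_AT read 3874, 4508, 4406 and 4340 with CP-775146, 2779, 3221, 1983 and 3780 with CP-868388 and 4151, 5076, 4360 and 3776 with CP-865520. At 24 h, 102004_AT read 9421, 10436, 8903 and 9799 with CP-775146, 5568, 7311, 3878 and 7598 with CP-868388 and 10344, 9155, 9244 and 6885 with CP-865520. At 24 h, 161401_F_AT read 1063, 1080, 1006 and 609 with CP-775146, 363, 612, 371 and 726 with CP-868388 and 927, 840, 970 and 702 with CP-865520. In 161401_F_AT the CP-868388 arrays overlapped with those of both other compounds. In 99559_AT and 102004_AT they were below all 4 of CP-775146 and overlapped only with CP-865520 replicate 4, an array of low Gapdh ratio. Replicates 1 and 3 were the lowest of the CP-868388 group in these 3 members. In 95026_AT, whose values are given above, the CP-868388 arrays did not overlap with those of the other compounds.

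The arrays of low Gapdh ratio were looked at within these 11 members, and a part of RNA integrity in the differences was not tested. The mean of CP-868388 replicates 1 and 3 was further out than that of replicates 2 and 4 in all 11 members. CP-865520 replicate 4 was the highest of its group in 4 of the 6 members and the lowest in 5 of the 5. Without these 3 arrays all 11 members kept their direction in both pairs and all 22 differences were smaller, with none called in both by limma, and 4 of the 6 and 3 of the 5 at an unadjusted p under 0.05 in both. The 11 were picked as called with these 3 arrays in the fit. Low-ratio arrays that stood further out, and smaller differences without these arrays, were thus favoured by the choice. Nothing is read from the counts of array order or from the count of 22. Their shares over all probe sets are not given here. Median distances from CP-775146 and CP-865520 went from 0.61 and 0.59 to 0.44 and 0.50 among the 6, and from 0.69 and 0.58 to 0.43 and 0.41 among the 5. With a covariate of RNA integrity in the fit, made from the 5′/3′ ratios of 3 control transcripts, the medians were 0.35 and 0.40 among the 6 and 0.34 and 0.29 among the 5. All 11 kept their direction in both pairs, with 0 called in both by limma, and 2 of the 6 and 1 of the 5 at an unadjusted p under 0.05 in both. A single array also counted: without CP-868388 replicate 3 the members above both numbered 2 and those below both numbered 2, and without replicate 1 those below both numbered 3.

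**Figure D4:**
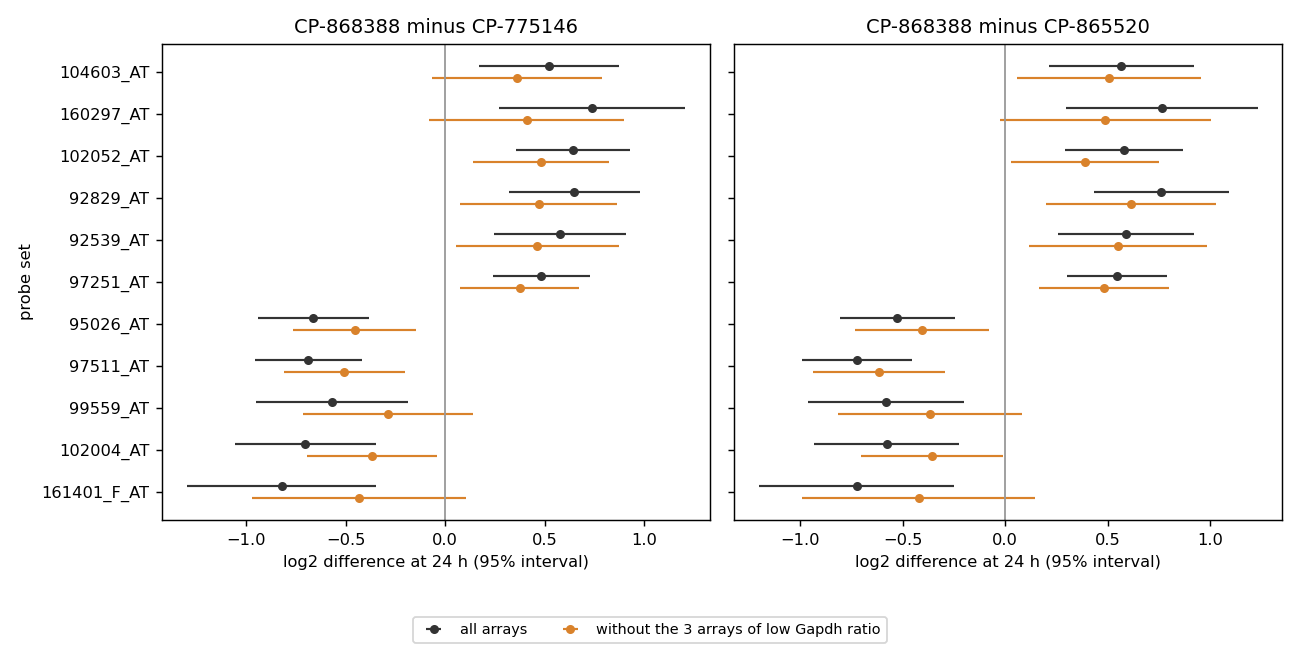
Log2 difference at 24 h between CP-868388 and CP-775146 (left) and CP-865520 (right) for the 11 members called in both pairs, with 95% intervals from limma, on all arrays (black) and without the 3 arrays of low Gapdh ratio (orange). Every orange point lies nearer to 0 than its black partner and on the same side.

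**Figure D5:**
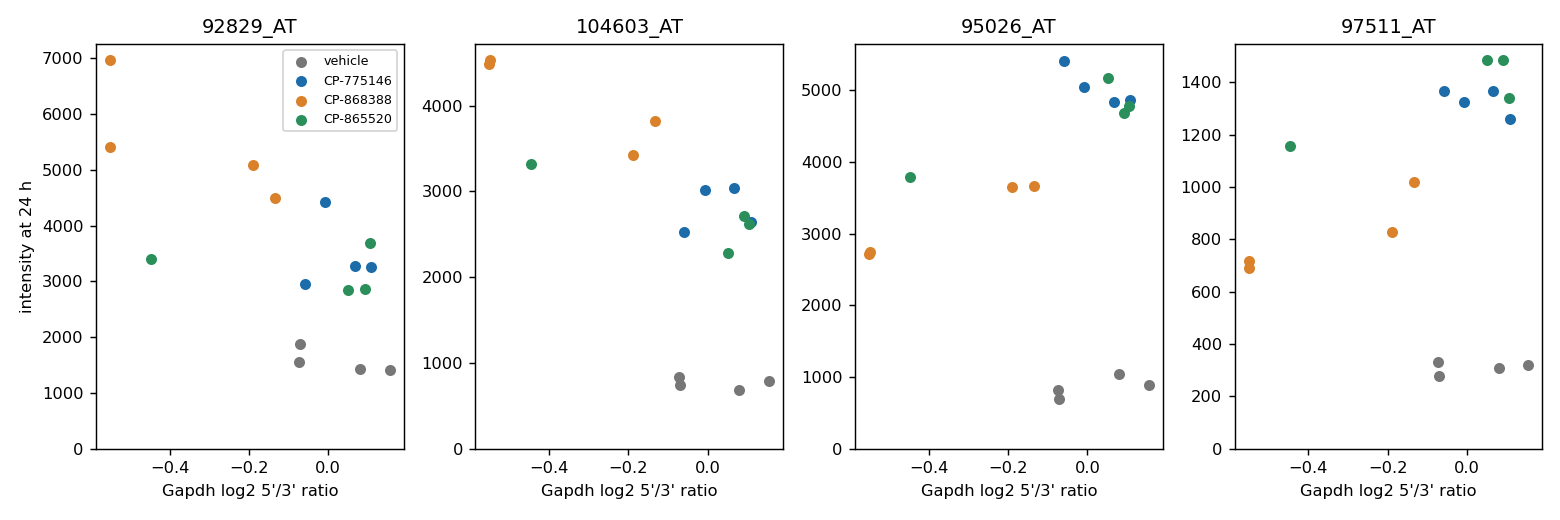
Intensity at 24 h of 4 members against the log2 5′/3′ ratio of the Gapdh control on the same array, 1 point per array, coloured by group. In 92829_AT and 104603_AT the CP-868388 arrays of lowest ratio are the highest, and in 95026_AT and 97511_AT they are the lowest; the 3 arrays under -0.4 are replicates 1 and 3 of CP-868388 and replicate 4 of CP-865520.

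At 5 days the compounds differed in 1 member call among the 3 pairs. CP-775146 differed from CP-868388 in 0 members by limma's adjusted p, where 0.0753% of all probe sets were called (0.0628% higher and 0.0126% lower). At an unadjusted p under 0.05, 9 members were higher and 0 lower under CP-775146. CP-775146 differed from CP-865520 in 0 members, with 2 higher and 2 lower at an unadjusted p under 0.05, where 0.0251% of all were called. CP-868388 was below CP-865520 in 94302_AT alone (0.0377% of all were called lower and 0.0628% in either direction). At an unadjusted p under 0.05, 8 members were lower and 0 higher under CP-868388. At 5 days, 94302_AT read 2477 and 2295 with CP-775146, 1766, 1996, 2076 and 2128 with CP-868388 and 2414, 2843, 2538 and 2653 with CP-865520. The 4 CP-868388 arrays were below the 4 of CP-865520, by 0.38 on the log2 scale with limma's adjusted p = 0.0428, and the call was lost in 11 of 19 alternative fits. In the 3 pairs, 58, 58 and 59 members had a difference whose 95% interval stayed inside 2-fold. The exception in both pairs with CP-775146 was 101103_AT. Leaving out CP-775146 replicate 1, so that its group is 1 mouse taken to vary like the other groups, gave 4 member calls against CP-868388, and leaving out CP-868388 replicate 4 gave 1. Of the 11 members in which CP-868388 differed from both at 24 h, none was called between compounds at 5 days. Whether the pair differences changed between the times was not tested.

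Around the threshold the members shade into probe sets left out. Just inside, the lowest of the 6 ratios was 2.00 in 96678_AT, 2.04 in 92829_AT and 2.05 in 160262_AT, each under CP-865520 at 24 h. At 24 h, 96678_AT read 1746, 1989, 1821 and 1925 with CP-775146, 1627, 1927, 2107 and 1995 with CP-868388 and 1832, 1978, 1557 and 1674 with CP-865520. At 24 h, 160262_AT read 2927, 2474, 2917 and 2559 with CP-775146, 3309, 3145, 2495 and 3337 with CP-868388 and 2506, 2963, 2470 and 2642 with CP-865520. Some agonist arrays of both were under 2 times the vehicle mean. Just outside, the lowest ratio was 1.95 in 102026_S_AT and 1.9965 in 95282_AT, both under CP-775146 at 24 h, and 1.97 in 99127_AT under CP-865520 at 24 h. In 95282_AT that ratio was of means of 1140 ± 126 and 571 ± 187 (SD, n = 4 each).

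The spread among the mice of a group was summarised as the coefficient of variation. Its median over the 59 members at 24 h was 13.6% under vehicle, 8.42% with CP-775146, 15.6% with CP-868388 and 11.9% with CP-865520. Over all probe sets above the floor on every array it was 11.1%, 11.4%, 16.7% and 13.9% in the same order. The highest member value was 62.9%, in 101103_AT under vehicle at 24 h, with the array at 115. In a further member, 98596_S_AT, CP-868388 was lower than CP-775146 at 24 h. At 24 h, 98596_S_AT read 698, 727, 817 and 802 with CP-775146, 367, 421, 498 and 566 with CP-868388 and 784, 654, 589 and 493 with CP-865520. All 4 CP-868388 arrays of 98596_S_AT were below all 4 of CP-775146, by 0.67 on the log2 scale with limma's adjusted p = 0.0117, and the CP-865520 arrays overlapped with both.

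The other 34 members, of which 99559_AT, 102052_AT, 92539_AT and 97251_AT have their 24 h array values above, had ratios between 2.05 and 5.89. A mean log2 ratio of 2.01 to 2.23 was found in 5, and their group ratios ran from 2.57 to 5.89: 96909_AT, 98353_AT, 102649_S_AT, 96095_I_AT and 99559_AT. In 102649_S_AT, vehicle replicate 4 of 24 h read 143 beside 399 to 634 on the others. Without that array the 24 h ratios of 102649_S_AT were 3.04 for CP-775146, 3.65 for CP-868388 and 2.43 for CP-865520. In 17 it was 1.51 to 1.91, with group ratios from 2.20 to 4.89: 101173_AT, 161122_F_AT, 96096_F_AT, 102761_AT, 98589_AT, 102052_AT, 95695_AT, 94485_AT, 94841_AT, 98527_AT, 93747_AT, 95516_AT, 160107_AT, 103386_AT, 92539_AT, 96913_AT and 102027_S_AT. In the last 12 it was 1.12 to 1.45, with group ratios from 2.05 to 3.73: 93882_F_AT, 160482_AT, 93626_AT, 96122_AT, 97525_AT, 96068_AT, 97824_AT, 97251_AT, 93500_AT, 99571_AT, 98132_AT and 160099_AT. In 101173_AT, CP-865520 replicate 4 at 24 h, of low Gapdh ratio, read 271 beside 799 to 846 on the others of its group. Its ratio without that array is not given here. Vehicle levels of the members, as means over the 8 vehicle arrays, ran from 106 to 6963 with a median of 611.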

How the data were processed

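The deposited values are intensities, 1 per probe set and array. Per the submitters' processing notes they were made with MAS5 (version, target and origin of the floor not given in the sources used here). All 30 arrays were used, with groups from the titles. Intensities were analysed as log2(intensity + 50) without further normalization. Probe sets above 50 on at least 2 arrays were tested (7963), and all 59 members passed through their vehicle arrays alone. Group means were fitted to all 30 arrays by limma (version 3.58.1, under R 4.3.3), with moderated variances that followed an intensity trend, two-sided tests and Benjamini-Hochberg adjustment over the 7963, in code tested on simulated data. Members, lists and tests were chosen with earlier results of these data known. Array values are given for the 10 members of largest mean log2 ratio, the 8 called with the largest change between times, up to 5 per pair of compounds, and those nearest the threshold; 4 members of the CP-868388 counts were added after their values were seen (99559_AT, 102052_AT, 92539_AT, 97251_AT). No table used here pairs probe sets with genes, so the planned pathway lists, cell type markers, promoter motifs and sequences were not applied. Alternatives changed the pseudocount (1 or 100), the filter (none, or above 80 on at least 4 arrays), the scaling (quantile, or centring on bright probe sets), the arrays fitted, the trend, a replicate block, and a covariate of RNA integrity made from the 5′/3′ control ratios of Gapdh, actin and pyruvate carboxylase. Figures used matplotlib 3.10.9 and Python 3.11.15.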

Additional observations from a re-analysis of the deposited data

Results flagged for a closer look

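In 8 of the 175 groups of 4 arrays examined among the members picked by rule for array values (4.57%), the highest or lowest array stood apart from the other 3 by Dixon's criterion, which chance meets in about 1 in 20 groups. After 24 h, CP-865520 replicate 1 read 5216 in 97316_AT beside 3856 to 4036 on the others. CP-775146 replicate 4 read 6567 in 101103_AT beside 8677 to 9109, and 609 in 161401_F_AT beside 1006 to 1080. CP-775146 replicate 3 read 4202 in 104165_AT beside 3597 to 3693. After 5 days, CP-865520 replicate 3 read 2253 in 97531_AT beside 3150 to 3311, and CP-865520 replicate 1 read 782 in 98596_S_AT beside 628 to 646. CP-868388 replicate 4 read 7999 in 102004_AT beside 6195 to 6284. Vehicle replicate 2 read 718 in 95026_AT beside 962 to 1003.

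The response to the agonists differed between 24 h and 5 days, by limma's interaction contrast, in the 8 members of largest difference described above. On the log2 scale the response at 5 days was larger by 1.2376 in 97889_AT, 1.1441 in 101082_AT, 1.1069 in 93212_AT and 0.9320 in 160484_AT. It was larger by 0.8285 in 102013_AT, 0.6848 in 104603_AT, 0.6705 in 93754_AT and 0.6559 in 100569_AT.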

How the results depend on the processing

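Of the members called in a comparison, none changed the sign of its difference there under any alternative tried. Members not called did: by comparison, 7 to 39 changed sign under at least 1 alternative. The counts under the alternatives are of members alone, without the share of all probe sets called in the same fit. Quantile normalization gave 2 vehicle calls higher at 5 days beside 5 lower. The count of members with a larger mean response at 5 days was 18 to 24 under the alternatives other than leaving out an array, and 15 to 24 with each array left out. For single compounds, the count for CP-775146 (11) became 18 with the integrity covariate, 19 with centring and 17 without the 3 arrays of low Gapdh ratio, and that for CP-868388 (9) became 3, 5 and 2. With each array left out these ran from 4 to 17 and from 6 to 10, and that for CP-865520 (27) from 21 to 28. Between CP-775146 and CP-868388 at 24 h, 17 calls became 0 with the covariate, 9 without a filter, 6 with only the groups compared in the fit and 0 without the 3 arrays, and 5 to 20 with each array left out. Between CP-868388 and CP-865520, 21 calls became 5 with the covariate, 9 with only the groups compared and 1 without the 3 arrays, and 8 to 23 with each array left out. CP-868388 above both (6) became 0 with the covariate, 3 with only the groups compared and 0 without the 3 arrays, and below both (5) became 0, 1 and 0; each ran from 2 to 7 with 1 array left out. These last alternatives were chosen after seeing the data. At 5 days, CP-775146 against CP-868388 (0) gave 1 without a filter and 1 without the trend, and 0 to 4 with each array left out. CP-868388 against CP-865520 (1) gave 0 with centring, with only the groups compared, with the replicate block and with the stricter filter, and 0 to 1 with each array left out; CP-775146 against CP-865520 stayed at 0 at both times. Vehicle calls (9) became 4 with centring and 4 with only the groups compared, and 3 to 11 with each array left out. The rule itself gave 29 members when every agonist array had to reach 2-fold, and 56 to 62 with each array left out.

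No pairing by the titles' numbers was seen: of 98 same-number pairs, 16 had a correlation over 0.1 (range -0.37 to 0.44). Of 30 arrays, 8 were closest to one of their own number. Such correlations cannot exclude that same-numbered mice shared handling, and the main fit took the samples as unpaired. With the replicate block the counts were 20 for the mean change, 10, 9 and 24 by compound, 14, 0 and 21 for the pairs at 24 h, 0 for each pair at 5 days and 7 for vehicle. The counts by pathway list were not run, as no gene names were used. The members read between 87 and 18491 on every array, but the rule itself asked for vehicle values above 50. Of the 59, 14 had a mean under 200 over the 8 vehicle arrays. How far background signal limits these dim members was not tested.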
